A study of Homo sapiens with 2 samples.

Results

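ATP-binding cassette (ABC) transporters were examined after treatment of HepG2 cells with the polyherbal Indo-Tibetan remedy PADMA28. HepG2 is a line derived from a human hepatocellular carcinoma. The family comprised all genes of the array annotation whose symbol starts with ABC, a letter from A to G and a digit, without pseudogenes and antisense transcripts. This gave 41 of the 19,775 genes with a probe set of their own, namely 11 in subfamily A, 8 in B, 10 in C, 3 in D, 1 in E, 3 in F and 5 in G. The cells received 218 μg/ml PADMA28 in aqueous ethanolic solution or 0.9% ethanol (EtOH) as the solvent control for 18 h. Cells of 3 cultures were pooled per treatment, and 1 Affymetrix U133 Plus 2.0 array was hybridised with the RNA of each pool. The spread between cultures is therefore unknown, there are no replicates, and no difference was tested across samples.

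ABC transporters carry a pair of nucleotide-binding domains that hydrolyse ATP to move a substrate across a membrane. In the liver, members at the canalicular membrane secrete bile acids, phospholipid, sterols and conjugated drugs into bile, whereas members at the basolateral membrane return conjugates and bile acids to the blood. Other members serve mitochondria, peroxisomes and lysosomes, and those of subfamilies E and F have no membrane-spanning part and act on ribosomes and translation.

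All values are log2 expression values as computed by the authors with GCRMA, and log2 differences are PADMA28 minus EtOH. A gene is represented by its brightest probe set. The limit for a signal above background was set 2 log2 units over the most frequent value of an array, at 4.25 for EtOH and 4.35 for PADMA28. The cells carried the transcripts of their labelled origin on both arrays, since 8 of 8 hepatocyte genes, among them albumin (ALB) and alpha-fetoprotein (AFP), lay between 12.84 and 16.62. Of 5 measured markers of blood, stromal and endothelial cells, PTPRC, COL3A1 and VWF were below background on both arrays, whereas COL1A1 and PECAM1 lay between 6.49 and 6.81. In RNA from whole cultures, fewer cells with a transcript and less transcript per cell cannot be told apart.

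Comparison of the arrays placed ABCC3 and ABCC4, multidrug resistance-associated proteins of subfamily C, more than 2-fold higher with PADMA28. No ABC gene was more than 2-fold lower. These 2 of 41 members are 4.88% of the family, and 0.875% of all 19,775 genes passed 2-fold upwards and 0.384% downwards. Among the 10,361 genes above background on at least 1 array the shares were 1.57% and 0.705%, and among those with a mean log2 value from 5 to 8, where ABCC3 and ABCC4 lie, they were 2.52% and 0.783%. Both genes stand in the tables of the study, which had selected them on the same arrays, so this count is not independent evidence of a direction. Of the 41 members, 25 were above background on both arrays and 16 were below it on both. The median log2 difference of the 25 was 0.083, while that of all genes above background was 0.057, so the medians lay close together.

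**Figure D1:**
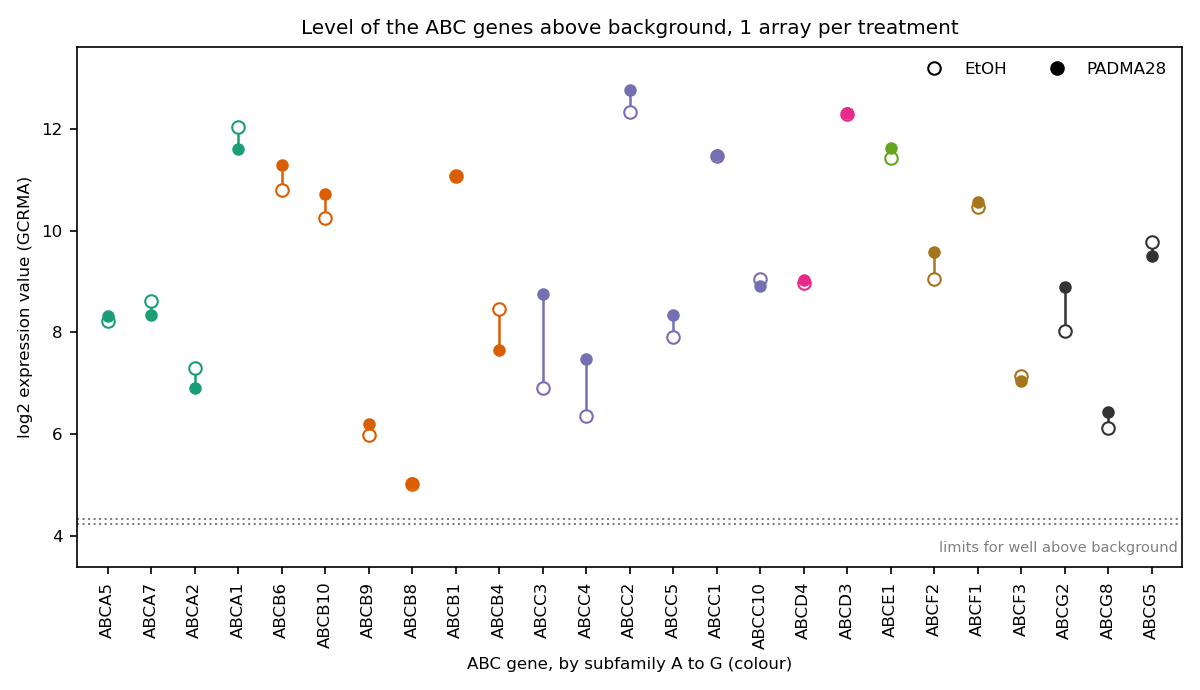
Log2 expression value (vertical axis) of the 25 ABC genes above background after EtOH (open circles) and PADMA28 (filled circles), with 1 array per treatment, a colour for each subfamily and dotted lines at the limits for well above background. ABCC3, ABCC4 and ABCG2 have the longest upward lines and ABCB4 the longest downward line.

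Subfamily C had the widest range of differences, from -0.15 to 1.84, with a median of 0.44 over the 6 members above background. ABCC3, a basolateral exporter of glucuronides and bile acids (Entrez gene 8714), was at 6.91 with EtOH and at 8.75 with PADMA28, which is 3.58-fold higher. Only 21 genes above background had a larger log2 difference. ABCC4, which exports cyclic nucleotides, urate and bile acids (Entrez gene 10257), went from 6.36 to 7.49, which is 2.18-fold higher. Its log2 difference of 1.13 was exceeded by 112 genes.

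All probe sets of both genes that were above background were higher with PADMA28, to unequal extents. For ABCC3, the brightest set, of the _s_at type, had a log2 difference of 1.84. An _x_at set went from 6.27 to 7.37 and a second _s_at set from 5.25 to 6.35, differences of 1.11 and 1.10. Its plain _at set went from 5.53 to 5.71, a difference of 0.19, and the remaining _x_at set was below background on both arrays. All sets of ABCC3 past 2-fold are of the _s_at or _x_at type, which can match more than 1 transcript, and without those types the gene was at 0.19. For ABCC4, a second set was below background with EtOH, at 2.99, and reached 5.06 with PADMA28, which is at least 1.75-fold higher. Without the limit its log2 difference is 2.07. The study lists ABCC4 with a log2 ratio of 2.1, which is the rounded value of this set and not of the brightest set. The other sets of ABCC4 were below background on both arrays. With 16 or 64 added to both linear values the log2 difference of ABCC4 was 0.99 or 0.73, and as the median over its sets it was 0.90, each short of 2-fold.

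The remaining exporters of the subfamily stayed within 2-fold. ABCC2, the canalicular pump for bilirubin glucuronides and glutathione conjugates, was at 12.32 with EtOH and 12.76 with PADMA28, a log2 difference of 0.44. ABCC5, an exporter of cyclic nucleotides and nucleotide analogues, went from 7.91 to 8.34, a difference of 0.43, with 0.54 on its second set above background. ABCC1, which exports glutathione conjugates such as leukotriene C4, was at 11.45 and 11.48, and its 2 sets differed by 0.024 and 0.21. ABCC10 was the member of this subfamily that lay below 0, from 9.06 to 8.91, with both sets at -0.15 and -0.17. The sulfonylurea receptors ABCC8 and ABCC9, which are regulatory subunits of potassium channels, and ABCC11 and ABCC12 were below background on both arrays.

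**Figure D2:**
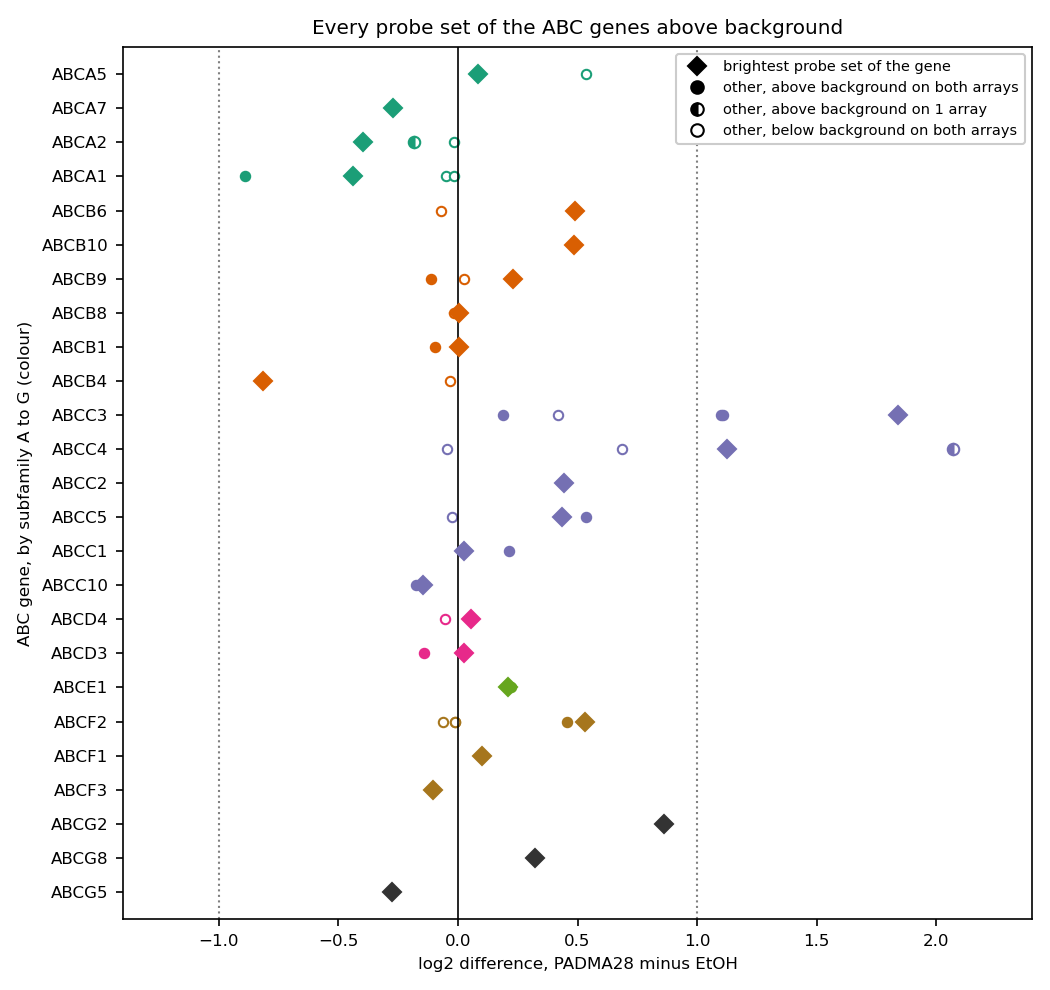
Log2 difference, PADMA28 minus EtOH (horizontal axis), of every probe set of the 25 ABC genes above background, from 1 array per treatment, with a colour for each subfamily. Diamonds are the brightest set of a gene, circles are its other sets (filled above background on both arrays, half-filled on 1, open on none), and dotted lines mark 2-fold; of the sets above background on both arrays, 3 of ABCC3 and 1 of ABCC4 lie past 2-fold, and the half-filled circle of ABCC4 stands for at least 1.75-fold.

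The sequences before the transcription start are shown for 4 members that differed in direction, so that the response elements discussed for these genes can be read in them. They are the 250 bases before the start in RefSeq (GRCh38.p14), each read 5′ to 3′ on the strand of its gene. Capitals mark matches, on either strand, to the core of the antioxidant response element bound by Nrf2 (TGACNNNGC) or of the xenobiotic response element bound by the Ah receptor (GCGTG), each searched on its own, with any overlap allowed. ABCC4 was 2.18-fold higher, ABCB6 and ABCC2 were higher by less than 2-fold, and ABCA1 was lower by less than 2-fold.
ABCC4, chr13:95301452-95301701, minus strand: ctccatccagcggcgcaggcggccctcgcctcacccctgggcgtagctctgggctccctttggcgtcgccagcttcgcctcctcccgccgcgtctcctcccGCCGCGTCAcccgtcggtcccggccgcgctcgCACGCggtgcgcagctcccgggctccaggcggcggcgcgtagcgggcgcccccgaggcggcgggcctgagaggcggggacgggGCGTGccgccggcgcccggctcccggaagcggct
ABCB6, chr2:219218959-219219208, minus strand: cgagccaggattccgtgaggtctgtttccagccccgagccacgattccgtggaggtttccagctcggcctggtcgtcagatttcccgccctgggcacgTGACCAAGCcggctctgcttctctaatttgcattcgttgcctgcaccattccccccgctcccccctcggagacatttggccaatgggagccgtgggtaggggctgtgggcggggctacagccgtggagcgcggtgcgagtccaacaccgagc
ABCC2, chr10:99782390-99782639, plus strand: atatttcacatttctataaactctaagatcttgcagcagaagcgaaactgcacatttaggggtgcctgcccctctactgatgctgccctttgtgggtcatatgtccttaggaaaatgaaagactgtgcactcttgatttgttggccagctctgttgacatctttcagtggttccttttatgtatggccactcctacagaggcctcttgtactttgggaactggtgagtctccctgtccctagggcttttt
ABCA1, chr9:104928156-104928405, minus strand: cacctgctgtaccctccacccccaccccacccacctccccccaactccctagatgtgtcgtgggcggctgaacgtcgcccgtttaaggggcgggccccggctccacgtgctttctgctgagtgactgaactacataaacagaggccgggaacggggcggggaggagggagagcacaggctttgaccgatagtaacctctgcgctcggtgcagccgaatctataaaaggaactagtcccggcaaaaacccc

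ABCC4 held 1 antioxidant core, which reads on the opposite strand and begins 149 bases before the start, and 2 xenobiotic cores. ABCB6 held 1 antioxidant core on the strand of the gene. ABCC2 and ABCA1 held neither. Each RefSeq window was searched over the 250 bases before the start alone, and of 35,116 windows 10.9% hold the antioxidant core and 32.2% the xenobiotic core. Windows were matched for 33 members, some with several. Of their 49 windows, 9 (18.4%) held the antioxidant core and 21 (42.9%) the xenobiotic core. Windows of a gene can overlap, as those of ABCG2 do, so a site can count more than once. The difference from the shares of all windows was not tested. By gene, 9 of the 33 members held the antioxidant core and 16 the xenobiotic core. The 7 members with the antioxidant core and above background had log2 differences from -0.40 for ABCA2 to 1.13 for ABCC4, with a median of 0.10, while the 15 without it had a median of 0.083. The 14 with the xenobiotic core had a median of 0.091 and the 8 without it 0.19. The direct repeat bound by LXR (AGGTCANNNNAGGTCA) was found in no member window and in 0.0142% of all windows. ABCB4, ABCC1 and ABCC3 are above background but had no matched window, so they are in none of these medians and ranges. They include the highest log2 difference of the family, 1.84 for ABCC3, and the lowest, -0.82 for ABCB4.

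In subfamily B, the phospholipid floppase lay below 0 and the heme-related members above it, all within 2-fold. ABCB4, which delivers phosphatidylcholine into bile, was at 8.47 with EtOH and 7.65 with PADMA28, which is 1.76-fold lower and the lowest log2 difference of the family at -0.82. Of the genes above background, 125 had a lower value. ABCB1, P-glycoprotein, which is the coding gene next to ABCB4 in the genome, was at 11.06 on both arrays with a log2 difference of 0.0033, and at -0.098 on its second set. A further probe set assigned to both genes, whose sequences are closely related, went from 11.39 to 11.18, a difference of -0.21. The value of ABCB4 rests on a single set of the _s_at type, its other set being below background on both arrays.

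ABCB6, a porphyrin transporter, went from 10.80 to 11.29, and ABCB10, a mitochondrial inner membrane transporter linked to heme synthesis, from 10.24 to 10.73. Both had a log2 difference of 0.49, higher than 90.6% and 90.5% of the genes above background, and neither passed 2-fold. Each value rests on a single set. The other set of ABCB6 was below background on both arrays, and the median over its sets was 0.21. ABCB10 has only a set of the _s_at type. ABCB8, another mitochondrial member, was at 5.03 and 5.04. ABCB9, a lysosomal peptide transporter, was at 0.23 on its brightest set and at -0.11 on another. The bile salt export pump ABCB11 and ABCB5 were below background on both arrays, at most at 2.94.

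Subfamily A, whose members move sterols and phospholipids, lay below 0 in 3 of the 4 members above background, as did 41.9% of all genes above background. ABCA1, which loads cholesterol onto apolipoprotein A-I, was at 12.04 with EtOH and 11.60 with PADMA28, a log2 difference of -0.44. Its second set went further down, from 11.85 to 10.96, a difference of -0.89 or 1.85-fold. ABCA2, of endosomal sterol traffic, went from 7.31 to 6.91, a difference of -0.40, and ABCA7, a close relative of ABCA1, from 8.62 to 8.35, a difference of -0.27. ABCA5 was at 8.23 and 8.31. The other 7 members, including the surfactant lipid transporter ABCA3, the retinal ABCA4 and the skin lipid transporter ABCA12, were below background on both arrays. ABCA8, ABCA9 and ABCA6 follow each other in the genome and were all among these, as was ABCA13.

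In subfamily G, the drug exporter ABCG2 and the sterol transporter ABCG8 lay above 0 and ABCG5, the partner of ABCG8, below it. ABCG2, the breast cancer resistance protein, which exports urate, porphyrins and drugs, was at 8.04 with EtOH and 8.90 with PADMA28, which is 1.82-fold higher. With a log2 difference of 0.86 it lay above 97.6% of the genes above background, behind ABCC3 and ABCC4 in the family. ABCG5 and ABCG8 form a heterodimer that secretes sterols into bile, and their genes lie side by side. ABCG5 went from 9.78 to 9.51, a difference of -0.28, whereas ABCG8 went from 6.12 to 6.44, a difference of 0.32. Each of these 3 genes has 1 probe set. ABCG1, which exports cholesterol to lipoproteins, and ABCG4 were below background on both arrays.

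Peroxisomal, lysosomal and soluble members stayed within 2-fold. ABCD3, a peroxisomal importer of branched fatty acids and bile acid precursors, was at 12.28 and 12.30, with sets at 0.026 and -0.14, and ABCD4, of lysosomal cobalamin transport, at 8.97 and 9.02. ABCD2 was below background on both arrays. ABCE1, a ribosome recycling factor, went from 11.42 to 11.63 and had 0.21 and 0.22 on its 2 sets. ABCF2 had the largest difference of the soluble members, from 9.05 to 9.58 or 0.53, with 0.46 on its second set above background. Its other 3 sets were below background on both arrays, and the median over all 5 was -0.010. ABCF1, which acts in translation initiation, was at 10.45 and 10.55, and ABCF3 at 7.15 and 7.05.

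**Figure D3:**
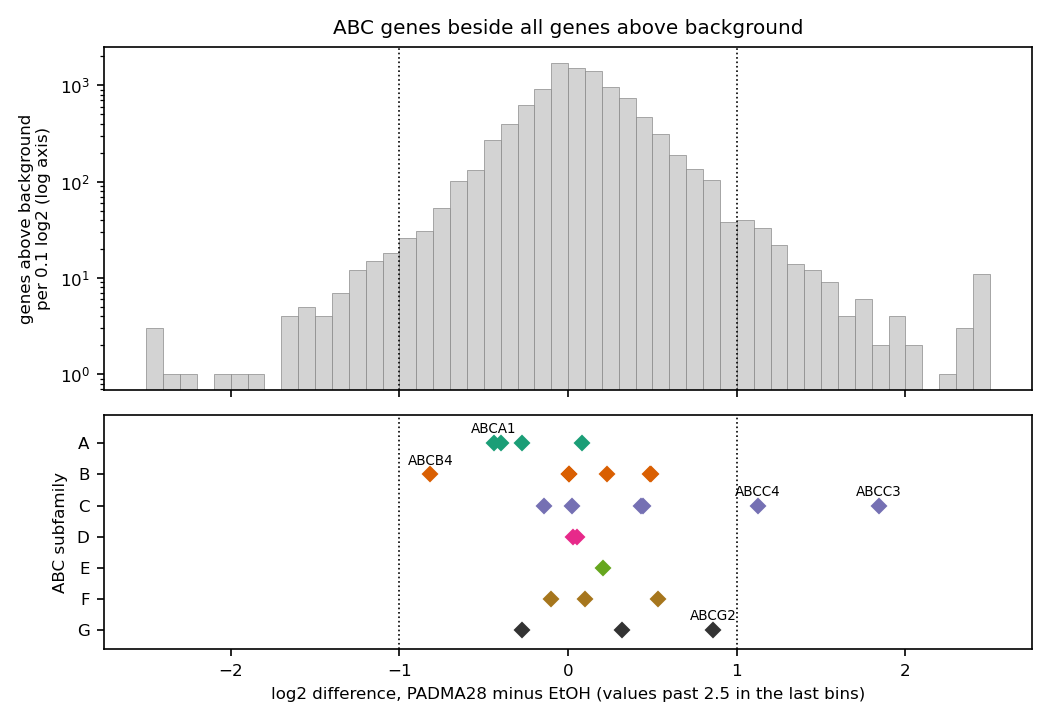
Number of genes above background (upper panel, log axis) by log2 difference, PADMA28 minus EtOH, and the same difference for the 25 ABC genes above background by subfamily (lower panel), from 1 array per treatment. Dotted lines mark 2-fold. ABCC3, ABCC4 and ABCG2 lie above the 95th percentile of the genes above background and ABCB4 lies below the 5th.

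The members were also grouped by membrane, a grouping made after the values had been seen. The basolateral exporters ABCA1, ABCC1, ABCC3, ABCC4 and ABCC5 had a median log2 difference of 0.43 and values from -0.44 to 1.84. Past 2-fold upwards were 2 of 5, against 1.57% of all genes above background. These 2 are ABCC3 and ABCC4, which the study had selected on the same arrays. The canalicular members ABCB1, ABCB4, ABCC2, ABCG2, ABCG5 and ABCG8 had a median of 0.16, with none of 6 past 2-fold and values on both sides of 0. Beside all genes, ABCC3, ABCC4 and ABCG2 lay above the 95th percentile of the genes above background, which was 0.65, and ABCB4 lay below the 5th percentile, which was -0.45. The other 21 members above background lay between these limits. Over 10 members with 2 or more sets above background on both arrays, 7 (70%) had all sets on the same side of 0, as did 62.8% of the 4,912 such genes of the series.

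The 16 members below background on both arrays had log2 differences between -0.18 and -0.016 and values of at most 3.44, and no fold change is given for them. Of the 92 probe sets that belong to a single ABC member, 53 were below background on both arrays. A further 2 were above it on 1 array. Among the 37 sets above it on both, 4 passed 2-fold upwards and none downwards, against 1.2% and 0.855% of the 18,367 such sets of all genes. The 4 sets are 3 of ABCC3 and 1 of ABCC4.

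Genes that act with ABC transporters were taken from lists drawn up by function. Of 9 nuclear receptors and other factors above background that act on ABC genes, none passed 2-fold on its brightest probe set. Below 0 lay 7 of them, as did 41.9% of all genes above background. NR1H3, the oxysterol receptor LXR alpha, was at 7.85 with EtOH and 8.72 with PADMA28 on its only own probe set, a log2 difference of 0.87. The study lists NR1H3 as more than 2-fold higher on the same arrays, a value that this set does not give. The known LXR targets ABCA1, ABCG5 and ABCG8 were at -0.44, -0.28 and 0.32. The Ah receptor AHR went from 11.15 to 10.50, a difference of -0.65, PPARG was at -0.51 and ARNT at -0.43 on the brightest of its sets, which reached up to 0.35. The constitutive androstane receptor NR1I3 was below background on both arrays.

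Among 11 partners and lipid acceptors above background, 1 was more than 2-fold lower and none higher. Of all genes above background, 0.705% were more than 2-fold lower and 1.57% higher. PDZK1, a scaffold protein that binds ABCC2 and ABCC4, went from 9.95 to 8.94 on its only own probe set. This is 2.00-fold lower, barely past the limit. PEX3, of peroxisomal membrane assembly, was at -0.47, the membrane linker EZR at 0.23 and PEX16 at 0.20. APOA1 and APOE, which accept lipid from ABCA1, were at -0.046 and 0.016. The potassium channel subunits KCNJ8 and KCNJ11, partners of ABCC9 and ABCC8, and MSN were below background on both arrays.

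Of 5 uptake and basolateral carriers above background, 2 were more than 2-fold higher and 1 lower, in a list drawn up with earlier results known, against 1.57% and 0.705% of all genes above background. SLC51B, a subunit of the basolateral bile acid exporter, went from 6.67 to 8.09, which is 2.68-fold higher, and its partner SLC51A from 11.49 to 11.87, a log2 difference of 0.38. The organic anion carrier SLC22A7 was at 5.55 and 7.03, which is 2.79-fold higher, with sets above background from 0.17 to 1.59. The uptake carrier SLCO1B3 went from 10.25 to 8.91, which is 2.54-fold lower. Some ABC proteins have other symbols. TAP1 and TAP2, which feed peptides to antigen presentation, had log2 differences of 0.38 and 0.68, the latter with sets from -0.057, and CFTR was below background on both arrays.

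**Figure D4:**
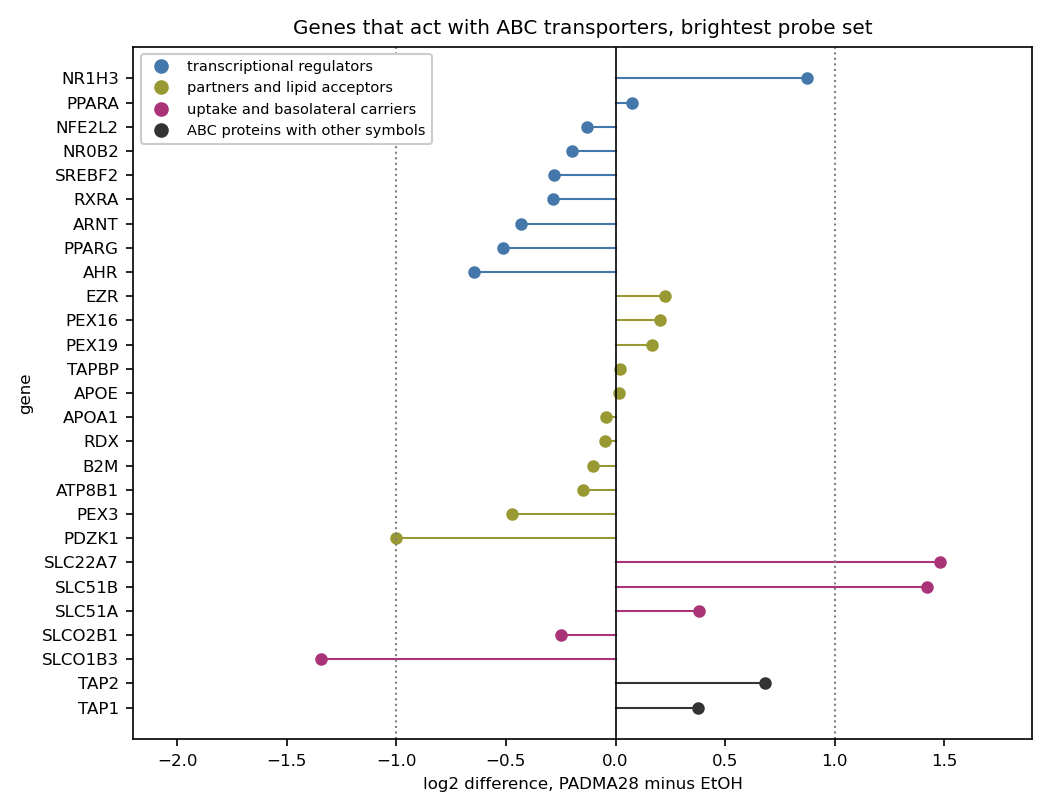
Log2 difference, PADMA28 minus EtOH (horizontal axis), of the brightest probe set of genes that act with ABC transporters and were above background, from 1 array per treatment, coloured by list, with dotted lines at 2-fold. Most regulators lie left of 0, while NR1H3 lies at 0.87 and the carriers reach from -1.35 to 1.48.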

How the data were processed

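HepG2 cells of 3 pooled cultures per treatment were hybridised to 1 array per treatment. The authors made the deposited log2 values of 54,675 probe sets with GCRMA, which corrects background from the probes' sequence. It then sets the probe values of both arrays to the same quantiles and last combines the probes of a set. The combined values need not share quantiles, and their medians were 3.13 for EtOH and 3.08 for PADMA28. GCRMA 2.28.0 and R 2.15.1 are listed in the processing notes of the submitters. Signal over background limits the precision, and there are no replicates. Genes were named from the platform annotation, and all 41 members kept their symbol in RefSeq. The annotation's pseudogenes of the family, 4 in all, were left out. A gene was represented by its own probe set with the highest mean, as for all 19,775 genes. The threshold was 2-fold, as in the methods of the study. Where 1 array was below its limit, the fold change is a lower bound against that limit. Every member is accounted for, with values for those above background. In the other lists up to 4 genes with the largest differences were to be named, and further ones were added after their values were seen. The members and lists were chosen with earlier results of these data known. The alternatives were other probe set choices, added values, centrings and background limits. The choice of the brightest probe set and the 2-fold cut were run on simulated data with differences set past the cut. The background limit, the lower bounds and the motif search were not tested in this way. Tools were pandas 2.3.3, statsmodels 0.14.6, numpy 2.4.6 and matplotlib 3.10.9 under Python 3.11.15.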

Additional observations from a re-analysis of the deposited data

How the results depend on the processing

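Under 11 alternatives no ABC member was more than 2-fold lower, and the median over members above background stayed between 0.025 and 0.21. The count of members more than 2-fold higher was 2 under 7 alternatives. It was 1 with the median of a gene's probe sets, 1 with 16 and 1 with 64 added on the linear scale, where ABCC4 was at 0.90, 0.99 and 0.73, and 1 without _x_at and _s_at sets, where ABCC3 was at 0.19 and ABCB4 at -0.032 on a set below background. Of 25 members above background, 19 kept their sign under each alternative that gave a value, and the others were ABCB1, ABCB8, ABCB9, ABCC1, ABCD3 and ABCF2. No paired analysis was possible because each treatment has 1 array. For members below background on both arrays no fold change could be given at this signal.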

Other observations

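Transcribed pseudogenes of the family were left out of the counts. ABCA11P, with 1 probe set, was at 6.36 with EtOH and 7.21 with PADMA28, a log2 difference of 0.86. ABCC6P1, also with 1 probe set, was at 9.06 and 8.99, a difference of -0.061. Whether that set also detects ABCC6, which is not among the members, was not tested. ABCA17P and ABCC13 were below background on both arrays.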
